A study of Homo sapiens with 20 samples.

Results

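Most genes described here encode the small subunit processome that assembles around the U3 small nucleolar RNA or the core proteins of the box C/D small nucleolar ribonucleoprotein particles (snoRNPs). The group also holds nucleolar genes that are neither, among them NPM1, NCL, NOLC1, NOP2, POLR1A and POLR1B. All were taken by name, 47 of the 28278 genes in the deposited tables. The choice was made with earlier results of these data known but by a rule that uses no measured value. In the skipped exon tables they had 58 of 19792 events after FUBP1 depletion (27 genes), 126 of 32990 events after U3 depletion (38 genes) and 22 of 7065 events after FBL depletion (14 genes). These were 149 distinct events. The 9 genes with no listed skipped exon event were FBL, RRP9, UTP3, WDR3, TBL3, PWP2, NOP14, IMP3 and DDX10. All 47 genes were listed in the FUBP1 RNA immunoprecipitation (RIP) table.

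Box C/D snoRNPs carry 2′-O-methylation of RNA. A guide RNA base-pairs with the target, SNU13 binds the kink-turn formed by boxes C and D, NOP56 and NOP58 hold the particle together, and fibrillarin (FBL) transfers the methyl group. The U3 particle, marked by its own protein RRP9, does not guide methylation of ribosomal RNA in this way. It pairs with the precursor of ribosomal RNA and organises the processome, in which UTP proteins, helicases and nucleases release the small subunit RNA. Several genes of this machinery carry small nucleolar RNAs in their own introns, and NOP56 held 5 of them in its annotation (SNORD110, SNORA51, SNORD86, SNORD56 and SNORD57).

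HepG2, a human liver cancer cell line, was used throughout. FUBP1, a nuclear protein that binds RNA and acts in splicing, was knocked down by siRNA for 48 h (siFUBP1, 3 libraries, with siCtrl2 as control, 3 libraries). U3 was targeted for 72 h, with RNA taken after an antisense oligonucleotide (ASO) against GFP (3 libraries) or U3 (3 libraries). Polyadenylated RNA was sequenced in both experiments. FBL was knocked down for 48 h (siFBL, with siCtrl as control), and FUBP1 RIP and input were sequenced from both, with 2 libraries in each of the 4 groups. Each depletion had its own controls and rested on 1 siRNA or 1 ASO. A library is named by its place in the deposited lists, which carried no replicate number. The study's methods call the libraries biological replicates, 3 for the RNA sequencing and 2 for the RIP.

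Junction reads per library came to 2693397 to 4474350 in the FUBP1 comparison, 11249641 to 13321799 in the U3 comparison and 910779 to 1142189 in the FBL inputs. All 14 liver markers had a mean count of at least 50 in both conditions of the RIP table. Of 10 markers of other cells 2 did, and the highest was VWF with 92.8 in siCtrl and 103 in siFBL. The targets themselves could be followed in part. FUBP1 had junction reads per 1000000 of the library (RPM) of 45.2, 56.1 and 50.3 in siCtrl2 and of 8.42, 10.1 and 4.08 in siFUBP1, a log2 change of −2.75 (SE 0.37). FUBP1 also fell in the U3 comparison, from 64.0, 58.7 and 56.9 RPM after GFP ASO to 43.4, 42.6 and 38.7 after U3 ASO (−0.52, SE 0.13, limma adjusted p = 0.00437, and −0.77 with size factors), so lower FUBP1 accompanied both comparisons, and its part in the U3 results was not tested. FBL had no listed junction event, and its mean normalised count in the RIP table was 1034 in siCtrl and 164 in siFBL, on scales set separately in each condition. U3 is not polyadenylated and was not measured in the junction tables. In the labels the antisense oligonucleotides have 20 bases, of which the 10 in capitals are 2′-O-methylated:
U3 ASO: UCACCttcaccctctCCACU
GFP ASO: CUGCCatccagatcgUUAUC
Neither had an exact complementary site in hg38 or in 252835 annotated transcripts, and the longest stretch complementary to the annotated SNORD3A transcript was 7 bases for the U3 ASO and 6 bases for the GFP ASO. The sequence given under the U3 name resembles one directed against GFP, so the names may be exchanged, the sequences misprinted, or both, in the labels. With the names exchanged, neither printed sequence would have an exact site in U3 either. Which of these holds was not tested. Depletion of U3 and every direction of the U3 comparison are taken from the group labels, and would reverse if the groups themselves were exchanged.

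The splice site change that passed its test in these genes concerned the donor of NOP56 exon 8, and it was singled out after its values had been seen. NOP56 lies at chr20:2652632-2658393 on the plus strand of hg38. Its exon 8 of the coding transcript ends at a short donor (chr20:2655934-2656034, 101 bases). An annotated long form ends 180 bases further (chr20:2655934-2656214, 281 bases), belongs to transcripts without a defined coding sequence, and holds the whole of SNORD86. This box C/D RNA is known to act in cis on the choice between both donors and thereby on NOP56 output. The long form is shown with the 86 bases of SNORD86 in capitals (chr20:2656097-2656182):
NOP56 exon 8, long form: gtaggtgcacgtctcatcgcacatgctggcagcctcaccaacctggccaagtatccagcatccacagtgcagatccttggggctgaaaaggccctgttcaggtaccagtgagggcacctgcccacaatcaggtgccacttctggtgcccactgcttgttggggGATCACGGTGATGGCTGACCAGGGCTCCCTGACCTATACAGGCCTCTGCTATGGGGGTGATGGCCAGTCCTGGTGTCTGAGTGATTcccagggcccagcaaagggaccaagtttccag
SNORD86 starts 62 bases after the short donor and ends 32 bases before the long donor. The donors themselves are shown as the last 3 exon bases and the first 6 intron bases, with the first 2 intron bases in capitals:
NOP56 exon 8, short donor: cagGTacca
NOP56 exon 8, long donor: cagGTcagc

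In the U3 comparison both forms of exon 8 were listed, spliced from exon 7 to exon 9. The long form had 2257, 2292 and 2574 inclusion reads in the GFP ASO libraries and 1631, 1875 and 2116 in the U3 ASO libraries. The short form had 939, 865 and 1112 reads in the GFP ASO libraries and 1250, 1433 and 1630 in the U3 ASO libraries. Every U3 ASO library thus had fewer reads of the long form and more of the short form than any GFP ASO library.

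Its share of the reads of both forms was 70.6%, 72.6% and 69.8% after GFP ASO and 56.6%, 56.7% and 56.5% after U3 ASO, and the groups did not overlap. The mean share fell from 71.0% ± 1.43 to 56.6% ± 0.0983 (SD, n = 3), which is −14.4 percentage points. In a quasi-binomial test over all 6179 testable pairs of listed events of 1 gene that differ in 1 boundary, NOP56 ranked first (p = 1.37e-06, adjusted p = 0.00844 with the dispersion moderated by limma), and it was the only pair called, against a background of 0.0162%. With 3 libraries against 3 the exact permutation test gives p = 0.1, the smallest it can give. The call was lost when GFP ASO library 1 (adjusted p = 0.108) or any of the 3 U3 ASO libraries (0.156 to 0.203) was left out, while the difference stayed between −15.0 and −13.6 points.

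Both forms share the junction from exon 7 to exon 8, and how its reads were divided between them is not stated in the sources used here, so the share describes listed reads and not molecules. The exon 9 event of the same table also counts the join from the long donor to exon 9, so it was not independent of the share. Its other join, from exon 9 to exon 10, is used with either donor. Reads that join the long donor to exon 9 and exon 9 to exon 10, divided by the reads of the exon 11 event of the same library, gave ratios of 1.01, 0.988 and 0.916 after GFP ASO and 0.874, 0.868 and 0.891 after U3 ASO. The mean ratio was 0.971 ± 0.0481 after GFP ASO and 0.878 ± 0.0119 after U3 ASO, and the groups did not overlap.

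In the FBL inputs the same donors were listed through exon 9 joined to either end of exon 8. The event with the long donor had 235 to 528 inclusion reads per library. Its share of the reads of both events was 49.0% and 49.3% in siCtrl input and 44.5% and 44.2% in siFBL input. Both events also count the join from exon 9 to the next exon, which either donor uses. This share is therefore not one of donor use alone and is not on the scale of the share after U3 ASO. The difference was −4.83 points, the groups did not overlap, and it did not pass the test (quasi-binomial p = 0.0698, adjusted p = 0.897, exact permutation p = 0.333, which is the lowest possible with 2 libraries a group). The ratio of the long donor event to the exon 11 event did not separate these inputs, with 0.438 and 0.635 in siCtrl input and 0.489 and 0.385 in siFBL input. None of the 584 pairs was called in this comparison (background 0%, 26 pairs at an unadjusted p below 0.05). In the FUBP1 table the long donor alone was listed for NOP56, so its share could not be formed, and 0 of 2631 pairs were called by the same test there (155 at an unadjusted p below 0.05).

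**Figure D1:**
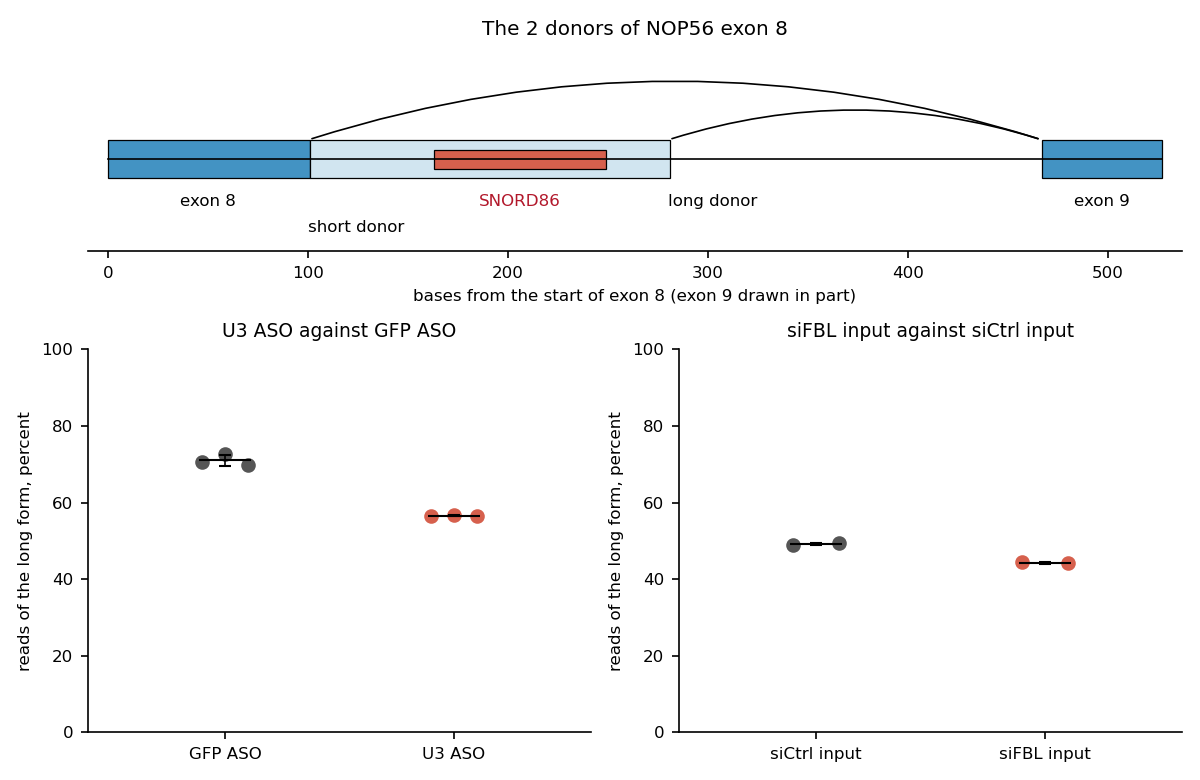
Top, map of NOP56 exon 8 with its short and long donors, SNORD86 between them (red) and the joins to exon 9, in bases from the start of exon 8. Bottom, percentage of reads listed for the long form of exon 8 (U3 comparison) or for the exon 9 event with the long donor (FBL inputs). Points are libraries, lines mean and SD. The panels count different joins and are not on the same scale. The 3 U3 ASO libraries lie at 56.5% to 56.7%, below the GFP ASO libraries at 69.8% to 72.6%. The 2 siFBL inputs lie at 44.2% and 44.5%, below the siCtrl inputs at 49.0% and 49.3%.

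Of the 12 genes whose junction read level was tested in all 3 depletions, NOP56 was the one called lower each time. NPM1 was lower with groups that did not overlap in all 3 as well, and was called in the U3 and FBL comparisons. Over all genes tested, 4.14% were called lower after siFUBP1, 8.58% after U3 ASO and 1.9% after siFBL. The share of all genes called lower in all 3 was not counted. The level is the sum of reads over the listed events of a gene in RPM, tested with limma on a log2 scale. It follows spliced RNA at these exons, and in bulk RNA fewer transcripts per cell and fewer cells with the transcript cannot be told apart. NOP56 had 684, 604 and 640 RPM in siCtrl2 and 431, 416 and 397 in siFUBP1 (log2 change −0.63, SE 0.10, adjusted p = 0.00038). It had 1565, 1560 and 1578 after GFP ASO and 1317, 1359 and 1429 after U3 ASO (−0.20, SE 0.05, adjusted p = 0.00221). It had 2306 and 2510 in siCtrl input and 1702 and 1499 in siFBL input (−0.59, SE 0.11, adjusted p = 0.00197).

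In each comparison every depleted library lay below every control. Levels cannot be set side by side between tables, which list different NOP56 events. After siFUBP1 the reads of the exon 9 event with the long donor went from 397 ± 39.4 to 278 ± 11.4 RPM and those of the event between exons 11 and 12 from 246 ± 17.5 to 137 ± 18.5 (SD, n = 3). After U3 ASO the short form of exon 8 went from 79.7 ± 7.81 to 119 ± 6.82 RPM, while the means of the other 4 NOP56 events were lower after U3 ASO than after GFP ASO. In the U3 and FBL comparisons the summed level includes the events of both donors, which share joins, so it was not independent of the donor shares. The exon 11 event, which uses neither donor, went from 545 ± 14.3 RPM after GFP ASO to 480 ± 17.4 after U3 ASO. Scaled by median-of-ratios size factors, the U3 and FUBP1 calls stayed (log2 changes −0.45 and −0.59), while the FBL change was −0.41 with an adjusted p of 0.0638. Without siFBL input library 1 or 2 its adjusted p was 0.185 or 0.239, with changes of −0.68 and −0.50.

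**Figure D2:**
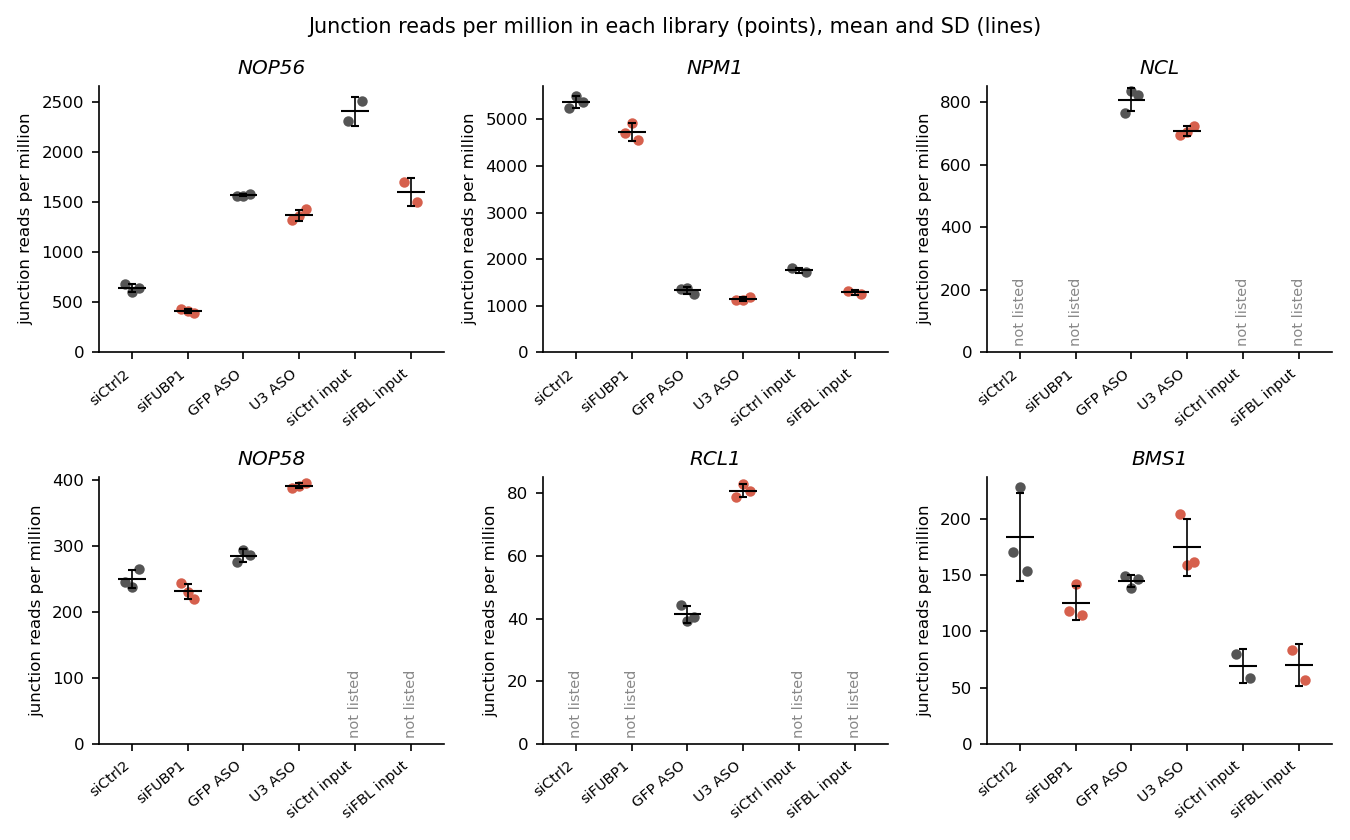
Junction reads (RPM) of 6 genes in each library (points), with mean and SD (lines); controls are grey, depletions red, and groups whose table lists no event of the gene are marked. NOP56 depleted libraries lie below their controls in all 3 comparisons, from 397 to 431 against 604 to 684 after siFUBP1, while RCL1 lies at 78.9 to 82.9 after U3 ASO against 39.3 to 44.5 after GFP ASO.

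FUBP1 depletion otherwise left few differences in level that passed the test. Of 27 tested genes 2 fell and none rose, against a background of 7.87% of 6432 genes called, 3.73% higher and 4.14% lower. With size factors NOP56 alone fell, against 8.08% called, 4.52% higher and 3.56% lower. BMS1, a GTPase of the processome, fell besides NOP56, from 171, 228 and 153 to 118, 142 and 114 RPM (log2 change −0.54, SE 0.16, adjusted p = 0.0434). This call was lost with size factors (adjusted p = 0.0547) and without siCtrl2 library 1 or 2 or siFUBP1 library 1 or 3 (adjusted p 0.0747 to 0.216). The other core genes with listed events did not pass, with log2 changes of −0.11 (SE 0.12) for NOP58 and 0.41 (SE 0.33) for SNU13. NPM1, an abundant nucleolar chaperone, had 5247, 5493 and 5374 RPM in siCtrl2 and 4714, 4928 and 4549 in siFUBP1 (−0.18, SE 0.06, adjusted p = 0.0884), and passed only with limma voom (adjusted p = 0.0302). Groups did not overlap for 6 of the 27 genes, where 25.8% of all genes tested did not overlap. The median log2 change was −0.18 over the group and −0.05 over all genes tested.

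The U3 comparison was the most deeply sequenced. All 38 genes with events were tested, 22 rose and 3 fell, against a background of 39% of 8548 genes called, 30.4% higher and 8.58% lower. The median log2 change was 0.34 over the group and 0.27 over all genes (0.09 and 0.03 with size factors). With size factors, which remove that shift, 6 genes rose and 4 fell against backgrounds of 15% and 16.3% (31.2% in either direction), and over all genes the higher share of the calls went from 78.0% to 47.9%. Groups did not overlap for 29 of the 38 genes, where 49.5% of all genes tested did not overlap.

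The largest rise was that of RCL1, the partner of BMS1 that is needed for cleavage of the ribosomal RNA precursor. It had 44.5, 39.3 and 40.6 RPM after GFP ASO and 78.9, 82.9 and 80.8 after U3 ASO. The U3 ASO libraries all lay well above the controls, with a fold of 1.94 and a log2 change of 0.96 (SE 0.12, adjusted p = 6.04e-06) and of 0.71 with size factors (adjusted p = 0.000191). NOP2, a methyltransferase of ribosomal RNA, went from 40.4, 37.2 and 40.8 to 72.9, 73.0 and 61.3 (0.80, SE 0.13, adjusted p = 0.000108). RRP12, an export factor of pre-ribosomes, went from 29.5, 16.6 and 33.6 to 52.1, 42.4 and 43.3 (0.83, SE 0.21, adjusted p = 0.0043). WDR43, a subunit of the UTP-A complex that links the processome to transcription by RNA polymerase I, went from 340, 334 and 285 to 447, 506 and 453 (0.55, SE 0.08, adjusted p = 1.26e-05). With NOP58 and UTP11 (log2 change 0.62, SE 0.13), these genes were the 6 that also rose with size factors.

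Other large rises held only with scaling to total reads. NOL6 was at 12.8, 7.43 and 5.84 RPM after GFP ASO and 18.2, 19.5 and 12.01 after U3 ASO (log2 change 0.93, SE 0.30), with overlapping groups. UTP15, a subunit of UTP-A, had a log2 change of 0.87 (SE 0.27), UTP23 one of 0.84 (SE 0.33) and KRR1 one of 0.69 (SE 0.17), and their adjusted p with size factors was 0.0886, 0.173 and 0.0533. UTP23 rested on 4.17 to 13.7 RPM, and its call was lost when any library but GFP ASO 2 was left out (adjusted p 0.0689 to 0.184). NOL6 lost its call without GFP ASO library 3 (0.0882) or U3 ASO library 1 (0.0825) or 2 (0.103), and UTP15 without U3 ASO library 1 (0.0835).

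The junction read levels of the core box C/D genes moved in different directions after U3 ASO, and FBL had no listed event. NOP58, the paralogue of NOP56, rose from 276, 295 and 287 to 388, 392 and 395 RPM (log2 change 0.45, SE 0.07, adjusted p = 2.04e-05, and 0.21 with an adjusted p of 0.0216 with size factors). SNU13 rose from 113, 97.4 and 109 to 134, 122 and 131 (0.28, SE 0.10, adjusted p = 0.0317), a change close to the median of all genes, and its size factor change was 0.03 (adjusted p = 0.861). The call was also lost without GFP ASO library 2 (0.116) or U3 ASO library 1 (0.109) or 3 (0.0908). NOP56 was the one core gene with listed events that fell. The other genes that fell were NPM1, from 1363, 1385 and 1242 to 1128, 1122 and 1196 (−0.21, SE 0.05, adjusted p = 0.00357), and nucleolin (NCL), from 766, 836 and 823 to 696, 705 and 725 (−0.19, SE 0.05, adjusted p = 0.0099). NCL and NPM1 are the abundant structural proteins of the nucleolus. In the annotation NCL and NOP56 host small nucleolar RNAs, while NPM1 hosts none. Hosts are also NOP58 and WDR43, which rose, and NOL11, which was not called. All 3 falls were larger with size factors (−0.46 for NPM1 and −0.44 for NCL), where UTP20 was a further gene that fell (−0.38, adjusted p = 0.0361).

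In the FBL inputs, the shallowest table, 13 genes were tested and UTP15 was listed below the read minimum. NOP56 and NPM1 fell and none rose, against a background of 2.49% of 3217 genes called, 0.591% higher and 1.9% lower. With size factors limma called none of the 13, against 1.71% called, 1.03% higher and 0.684% lower. NPM1 had 1801 and 1723 RPM in siCtrl input and 1325 and 1255 in siFBL input (log2 change −0.45, SE 0.12, adjusted p = 0.0424), and this call was lost with size factors (adjusted p = 0.372) and when any of the 4 libraries was left out (0.133 to 0.336). SNU13 was at −0.35 (SE 0.62). POLR1B, a large subunit of RNA polymerase I, had 28.0 and 26.4 RPM in siCtrl input and 10.5 and 5.07 in siFBL input, with an adjusted p of 0.507. Groups did not overlap for 6 of the 13 genes, where 43.7% of all genes tested did not overlap. Over all 3 comparisons, 12 genes were tested each time, and those called more than once were NOP56, NPM1 and BMS1, the last with opposite signs after siFUBP1 and U3 ASO (0.26, SE 0.10, adjusted p = 0.0425, and 0.02 with size factors). After U3 ASO the BMS1 call was lost without GFP ASO library 2 (0.109) or 3 (0.0696) or U3 ASO library 1 (0.28). The share of all genes called more than once was not counted.

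**Figure D3:**
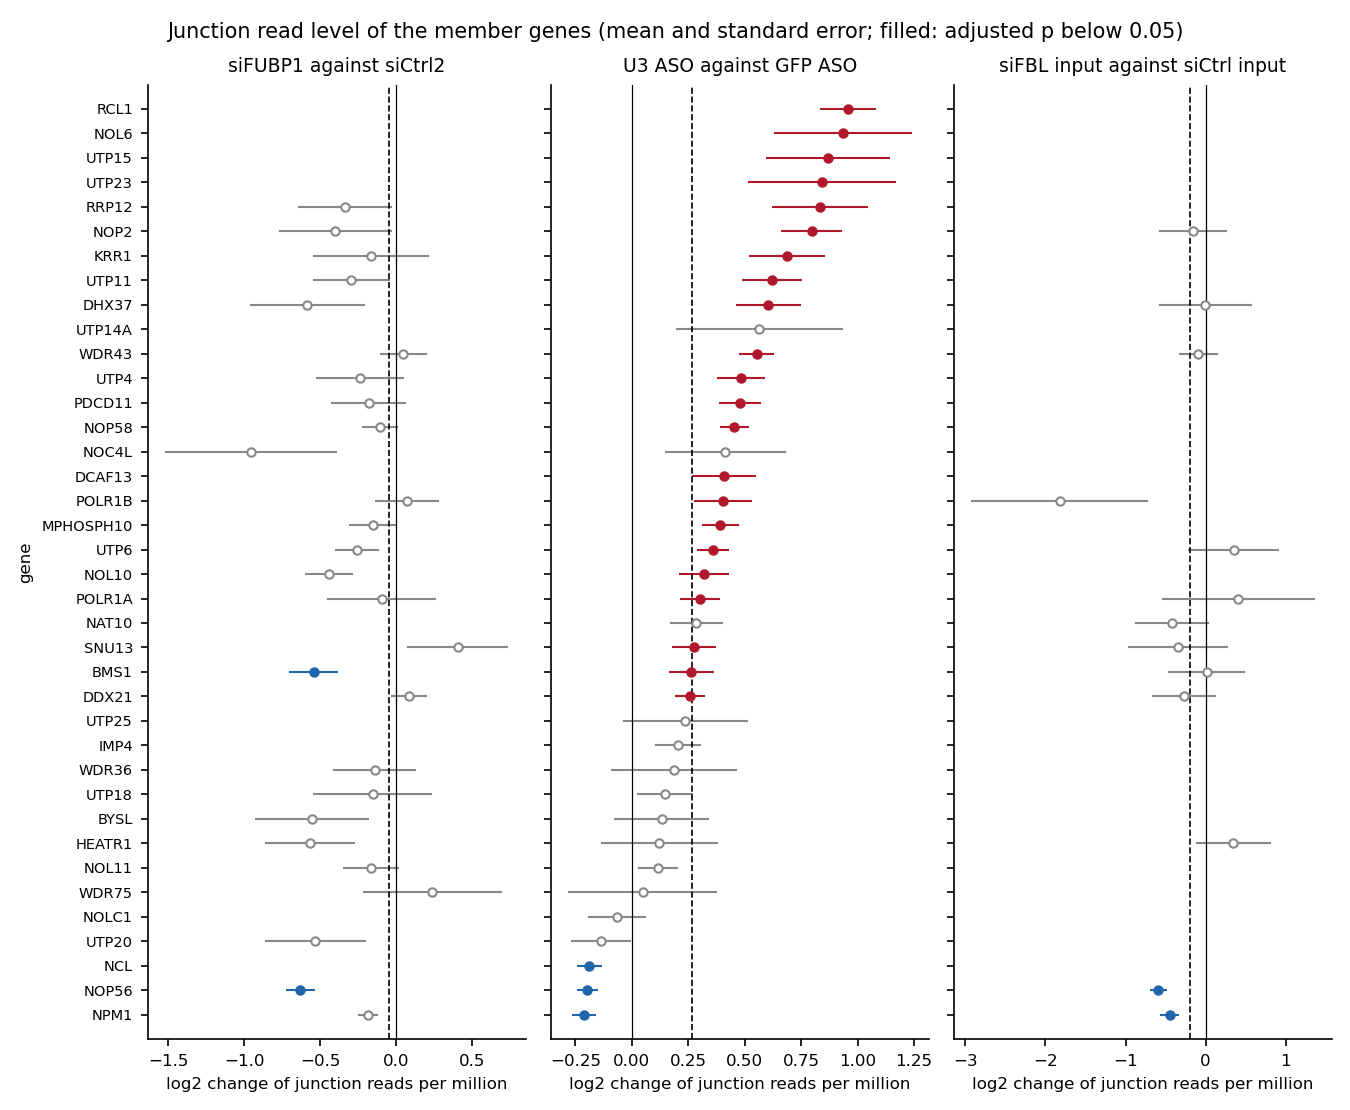
Log2 change of RPM (points, with standard error) of each tested gene in the 3 comparisons; filled points passed an adjusted p of 0.05, red higher and blue lower, and the dashed line is the median of all genes tested. After U3 ASO 22 of 38 genes lie to the right and passed, around a median of all genes of 0.27, and 3 to the left; with size factors 6 were higher and 4 lower.

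The rest of the ribosome synthesis machinery gave the following counts, to be set beside the backgrounds given above for each comparison. After U3 ASO, 11 of 18 tested other small subunit factors and 18 of 31 large subunit factors rose and none fell (median log2 changes 0.35 and 0.39), while with size factors 3 of each rose and 1 of each fell. Of 7 tested box C/D assembly factors 2 rose (median 0.38), of 4 H/ACA proteins and assembly factors 1 rose (median 0.00), of 13 genes of RNA polymerase I and its factors 2 rose and 2 fell (median −0.02), and of 12 nuclear exosome genes 2 rose (median 0.23). With size factors 1 gene of RNA polymerase I and its factors rose and 3 fell, 3 nuclear exosome genes fell and none rose, and 1 gene rose in each of the box C/D assembly and H/ACA lists. After siFUBP1 1 of the 68 genes tested over these lists passed, a nuclear exosome gene that fell, and in the FBL inputs none of 30 did, by limma in both cases.

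Exon inclusion in these genes was high in controls for most events, and its median change was small. The inclusion level is the share of inclusion reads after division by the effective length of each form. Of the 149 distinct events, some of which share an exon, 136 had their exon within the coding sequence of the canonical transcript, 10 had one that is not part of it and 3 had one that is part coding and part UTR. In controls the mean level exceeded 95% for 43 of 57 tested events in siCtrl2, 102 of 122 in GFP ASO and 14 of 21 in siCtrl input. The median absolute change was 1.38 percentage points after siFUBP1, 0.647 after U3 ASO and 1.95 after siFBL. The largest was 30.6 points after siFUBP1, in an event with a mean of 10.2 reads per library, 20.7 after U3 ASO and 14.7 after siFBL. Groups did not overlap for 2, 3 and 0 of the tested events, where 5.15%, 6.18% and 14.4% of all events tested did not overlap. By the quasi-binomial test none of the 57, 122 and 21 events was called, against backgrounds of 0.197%, 0.226% and 0% of all events tested. At an unadjusted p below 0.05 there were 0, 2 and 0 events, where the background was 4.6%, 4.16% and 2.28%. With limma fitted to log2 odds none was called either when the variance was constant, and 0, 1 and 0 were called when it followed a trend.

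That event was an alternative exon of SNU13 (chr22:41682356-41682587, minus strand, 232 bases). It is not in the canonical transcript and is held by 2 coding transcripts. In an annotated coding transcript that holds this exon, its last bases form the start codon. Its last 30 bases are shown with the start codon in capitals (chr22:41682356-41682385):
SNU13 exon, last bases: cggcaagagactaccaagacagacgctATG
Its inclusion was 24.0%, 19.0% and 17.5% after GFP ASO and 33.6%, 37.1% and 31.0% after U3 ASO, and the groups did not overlap. The mean went from 20.2% ± 3.43 to 33.9% ± 3.09 (SD, n = 3, mean of 454 reads per library), with a quasi-binomial p of 0.000487 and an adjusted p of 0.174, and an adjusted p of 0.0269 in the limma fit with the trend. The level was 37.7%, 48.6% and 31.5% in siCtrl2 and 54.0%, 38.0% and 24.1% in siFUBP1, and 37.0% and 41.2% in siCtrl input and 63.6% and 37.0% in siFBL input. These groups overlapped.

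NOP56 holds another exon outside its canonical transcript, between exons 11 and 12 (chr20:2657373-2657488, 116 bases). In annotated nonsense-mediated decay transcripts the reading frame ends inside it, at the stop codon in capitals among its first 30 bases (chr20:2657373-2657402):
NOP56 exon between exons 11 and 12, first bases: gaaggagataggtgcTGAacttgctcaaga
It was included at low levels everywhere, with group means of 1.34% to 2.61%. The means were 1.84% ± 0.23 and 2.61% ± 0.78 in siCtrl2 and siFUBP1, and 1.88% ± 0.255 and 2.16% ± 0.395 after GFP ASO and U3 ASO (SD, n = 3). In siCtrl input it was 0% and 2.69%, and in siFBL input 2.66% and 2.08%. No group was separated from its control.

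**Figure D4:**
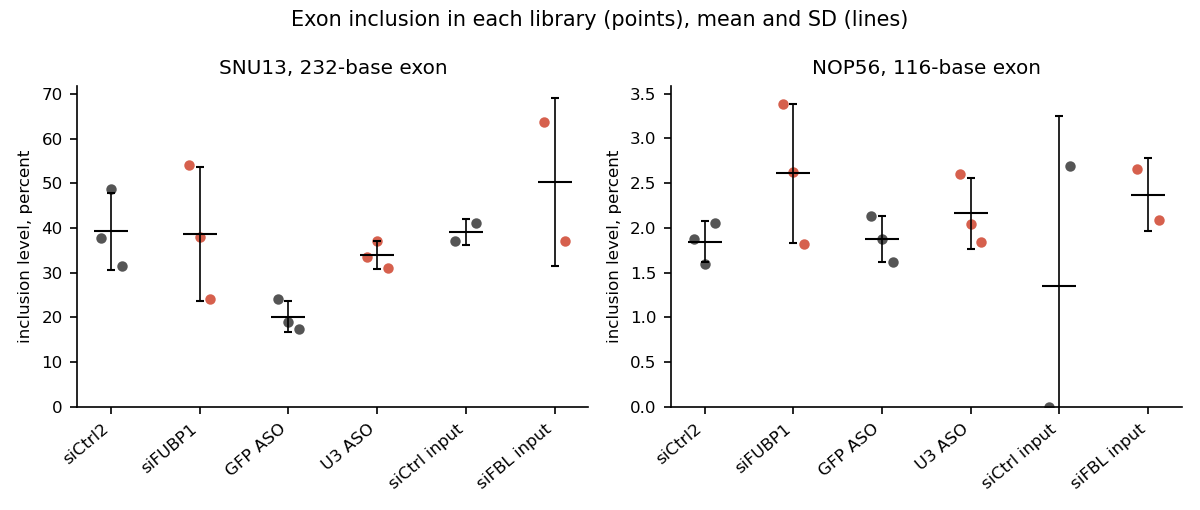
Inclusion level in percent of the 232-base exon of SNU13 and the 116-base exon of NOP56 in each library (points), with mean and SD (lines), controls grey and depletions red. The SNU13 exon lies at 31.0% to 37.1% after U3 ASO against 17.5% to 24.0% after GFP ASO, without passing the adjusted test, and the NOP56 exon stays below 3.5% in every library.

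After U3 ASO the events with the next smallest p were in NOLC1, a chaperone of snoRNPs (56 bases, chr10:102157019-102157074, 77.8%, 98.8% and 92.1% against 100% in all 3 U3 ASO libraries, p = 0.0339 and adjusted p = 0.845 in the quasi-binomial fit), and in NOC4L (61 bases, chr12:132150981-132151041, 100%, 97.3% and 100% against 74.6%, 94.1% and 95.7%). UTP6 (73 bases) stood at 94.9% ± 3.27 and 99.2% ± 0.977, and PDCD11 (117 bases) at 97.7% ± 3.91 and 100%. After siFUBP1 the smallest p were those of UTP18 (39 bases, 100% in every control against 64.9%, 100% and 100%), of 78 and 46 bases of NOL10 (means of 100% against 91.3% ± 4.98 and 88.1% ± 10.7), of DHX37 (72.8% ± 20.4 against 83.6% ± 28.5) and of WDR43 (98.6% ± 1.5 against 93.5% ± 3.44), with adjusted p of 0.812. In the FBL inputs they were those of DHX37, POLR1B, exon 11 of NOP56 (100% against 98.9%) and NPM1, all with an adjusted p of 0.874.

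A set of 12 events in 8 genes was tested in all 3 tables. Among these, exon 9 of NOP56 had group means of 98.4% to 99.8%, 3 exons of NPM1 98.1% to 100%, an exon of BMS1 93.1% to 100%, 2 exons of UTP6 93.1% to 100% and an exon of WDR43 93.5% to 99.1%. An exon of DHX37 ranged from 72.8% to 100%, one of POLR1B from 0% to 14.6%, and the SNU13 and NOP56 exons above completed the set. NOP58 had 4 events tested after siFUBP1 and 6 after U3 ASO, with group means of at least 91.7%.

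FUBP1 RIP over input was measured for 46 of the 47 genes, since PWP2 was listed at 0. The enrichment is the log2 ratio of RIP to input as estimated by the authors with DESeq2 in each condition, pooled over 2 RIP and 2 input libraries. In siCtrl cells it ran from −4.35 (SE 0.40) for NOC4L to 3.03 (SE 0.09) for WDR36. Above 0 lay 22 of the 46 genes (47.8%), where 52.3% of all 11581 genes tested lay above 0. The genes at the top after WDR36 were KRR1 (2.63, SE 0.10), UTP15 (2.37, SE 0.21), WDR75 (2.31, SE 0.13) and NOL11 (1.85, SE 0.11). At the bottom after NOC4L were RRP9 (−3.30, SE 0.30), NOL6 (−2.70, SE 0.19), TBL3 (−2.59, SE 0.28) and BYSL (−2.52, SE 0.21). WDR36 and TBL3, which sit together in the UTP-B complex, stood at opposite ends.

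The core box C/D proteins were spread over this range. SNU13 was enriched (1.05, SE 0.12), NOP58 was near 0 (0.23, SE 0.11), and NOP56 (−1.42, SE 0.06) and FBL (−2.41, SE 0.16) were depleted from the RIP. NPM1 stood at 1.06 (SE 0.04) and NCL at −0.51 (SE 0.04). The order followed base composition. Over the 46 genes Spearman's rho between enrichment and GC content of the canonical transcript was −0.90, and over all 11011 genes with a matched transcript it was −0.82. For the GC content of introns it was −0.83 over 44 genes and −0.75 over 10756. KRR1 and WDR36 had 36.0% and 36.7% GC, and NOC4L and RRP9 64.2% and 60.7%. All genes share the same libraries and estimates, and the part of composition in the enrichment was not tested.

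After FBL depletion 45 of 46 genes were on the same side of 0 as in siCtrl. The exception was BMS1 (−0.11 and 0.00, each within 2 SE of 0). The difference siFBL minus siCtrl was called for 9 genes, 8 higher and 1 lower, in a Wald test on the DESeq2 estimates with Benjamini-Hochberg adjustment, against backgrounds of 6.57% higher and 8.18% lower. NCL had the smallest p (difference 0.33, SE 0.05, adjusted p = 7.55e-09), from −0.51 to −0.18. POLR1A, the largest subunit of RNA polymerase I, went from −1.39 to −0.82 (0.57, SE 0.13, adjusted p = 0.000439), DDX10 from 0.55 to 1.19 (0.63, SE 0.20, adjusted p = 0.02) and DHX37 from −1.93 to −1.32 (0.61, SE 0.20, adjusted p = 0.0265). PDCD11, NOP14, RRP12 and NOP2 were the others higher (0.40 to 0.51, adjusted p 0.00547 to 0.0792), and WDR36 was lower, from 3.03 to 2.53 (−0.50, SE 0.18, adjusted p = 0.0416).

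None of the core proteins passed this test. The difference was 0.10 for NOP56 (95% interval −0.09 to 0.29), 0.16 for NOP58 (−0.12 to 0.44), −0.22 for SNU13 (−0.51 to 0.07) and 0.63 for FBL (−0.22 to 1.49), and that of RRP9 was 0.49 (−0.43 to 1.41). The largest differences in size belonged to genes that did not pass, with 1.42 (SE 0.59, adjusted p = 0.111) for NOC4L and 0.65 (SE 0.48) for UTP4. On the lower side, IMP4 had −0.37 (SE 0.22), UTP15 −0.30 (SE 0.32) and NOL11 −0.29 (SE 0.17).

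The direction of the calls went with the starting enrichment. Over all genes tested the SD of enrichment was 2.02 in siCtrl and 1.81 in siFBL, and the slope of the difference on the siCtrl value was −0.13. The siCtrl value is also subtracted in the difference. Its error therefore makes the slope more negative and moves calls in the same direction when genes are split by siCtrl. How much of the pattern this makes up was not tested. Of genes below 0 in siCtrl, 7 of 24 in the group (29.2%) and 12.7% of 5525 genes were called higher and none of the 24 was called lower. Of genes above 0, 1 of 22 in the group was higher and 1 lower, where 15.2% of 6056 genes were lower. After a linear trend on the mean enrichment was removed, an alternative added after the data were seen, 4 genes of the group were called and all were higher: NCL, POLR1A, DDX10 and NPM1 (0.16 with an adjusted p of 0.0782 for NPM1). Under that setting 270 of all 11581 genes tested were called higher and 204 lower. The falls in NOP56 and NPM1 junction level after siFBL come from the inputs that also enter the RIP ratio.

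**Figure D5:**
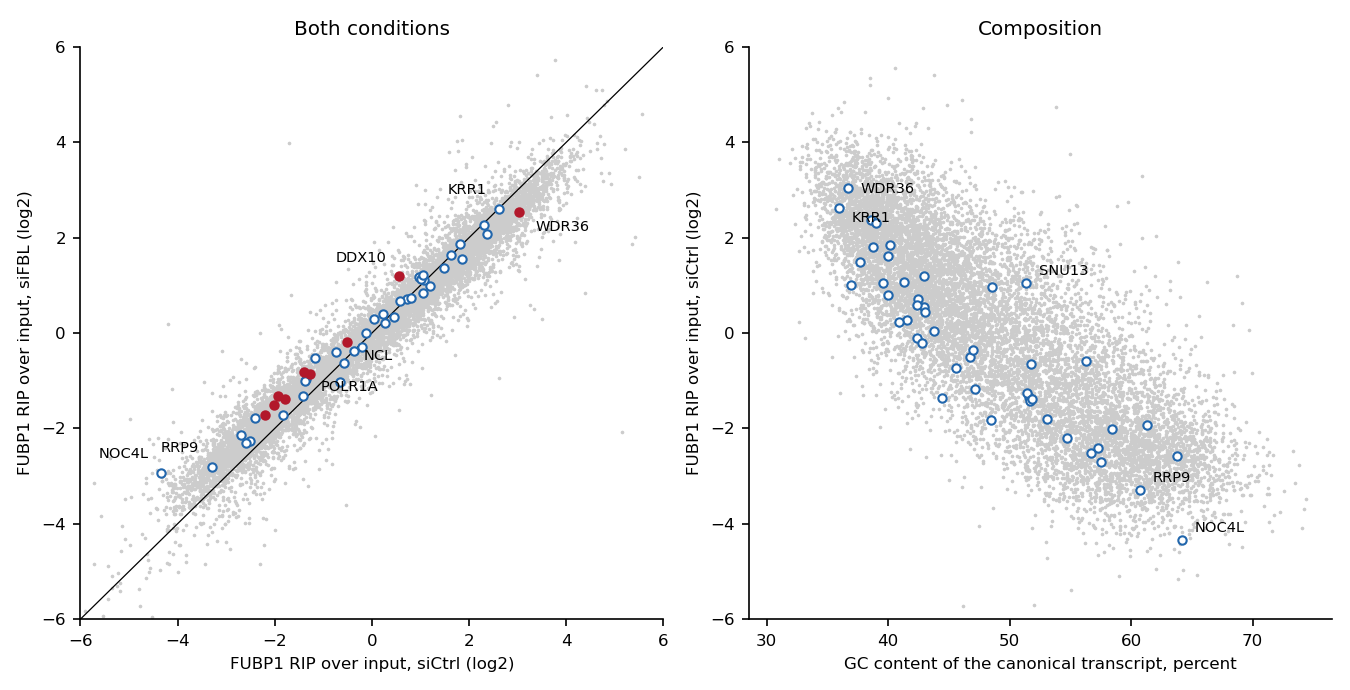
Left, FUBP1 RIP over input (log2) in siFBL against siCtrl for the genes described here (circles, filled red where the difference passed an adjusted p of 0.1) and all genes tested (grey), with the line of equality. Right, the siCtrl value against GC content of the canonical transcript in percent; values outside −6 to 6 are not drawn, and the group runs from WDR36 at 3.03 and 36.7% GC to NOC4L at −4.35 and 64.2% GC.

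Among related lists the share above 0 in siCtrl was 45.8% of 24 other small subunit factors, 50% of 8 box C/D assembly factors, 66.7% of 6 H/ACA proteins and assembly factors, 35.9% of 39 large subunit factors, 37.5% of 16 genes of RNA polymerase I and its factors and 57.1% of 14 nuclear exosome genes. After siFBL 10 of the 107 genes tested over these lists were called higher and 3 lower, against backgrounds of 6.57% higher and 8.18% lower. Of the 39 large subunit factors 6 were called higher and none lower.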

How the data were processed

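Libraries of HepG2 cells were analysed from the tables the authors deposited. Per the labels and the study's methods, adapters were trimmed with cutadapt, reads aligned to hg38 with HISAT2, and skipped exon events counted by the authors with rMATS from junction reads, deposited as lists of 1 whole number per library; versions and the annotation are not given in the sources used here. For RIP, reads were counted per gene (HTSeq in the methods, featureCounts in the submitters' processing notes), and the deposited log2 values, their standard errors and the mean normalised count, a score whose scale differs between the conditions, came from DESeq2 fits of RIP against input by the authors. P-values, test statistics and inclusion differences of the authors' own comparisons and 6 columns of inclusion levels were not used.

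The members and gene lists were chosen with earlier results of these data known. All tests were fitted over every event or gene of a table. Inclusion was tested with a quasi-binomial F test (dispersion moderated with limma 3.58.1, events with a mean of at least 10 reads per library, called below 0.1), level with limma and a variance trend on log2(junction reads per 1000000 + 0.5) (genes with a mean of at least 10 reads, called below 0.05), and RIP with a Wald test on the difference of both estimates (mean count of at least 50 in both conditions, estimate not exactly 0, called below 0.1), each with Benjamini-Hochberg adjustment in R 4.3.3 and Python 3.11.15. The fold of a level is on the log2(value + 0.5) scale, which understates low genes. Pairs of events that differ in 1 boundary were added after the data were seen. Named were the core proteins and RRP9, called events and the 5 with the smallest p, events tested in all tables, the 8 called genes with the largest level change and those called more than once, and the 5 highest and lowest RIP values. NOP56 and its donors, and the event pairs, were singled out after their values were seen. Counting gives no molecular identifiers that the sources mention, and precision follows the depth of each table. Tests were checked on simulated data. Exons and sequences are from GENCODE 44 and hg38, counted from 1. Alternatives were other read minimums, tests, scalings, pseudocounts, the single deepest event of a gene, and leaving out each library.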

Additional observations from a re-analysis of the deposited data

How the results depend on the processing

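No paired analysis was possible because the lists of reads carry no replicate number. Of the counts of member genes called, that for level after siFUBP1 (2) became 1 with size factors, 1 with the single deepest event of each gene and 1 to 2 without single libraries. After U3 ASO 25 genes became 10 with size factors and 19 to 23 without single libraries. In the FBL inputs 2 genes became 0 with size factors, 0 with the single deepest event and 0 to 1 without single libraries, where leaving out siFBL input 1 or 2 left 6 and 5 calls among all genes. The count of SNU13 among inclusion calls after U3 ASO was 1 with limma fitted to log2 odds and a trend in the variance, against 0 in the test used and 0 without single libraries in each comparison. The NOP56 long form difference of −14.42 points after U3 ASO kept its size but not its call with limma fitted to log2 odds and constant variance (adjusted p = 0.471). Without single libraries it was −15.02 to −13.63 after U3 ASO, and the share difference of the exon 9 events in the FBL inputs was −5.002 to −4.648. The RIP count of 9 became 4 after removal of the trend. No value changed sign while called. For single genes, 839 of 910 level values stayed on their side of the threshold, 66 lost the call and 5 gained it. The FBL inputs were the limiting table, with 910779 to 1142189 junction reads per library and 2 libraries a group.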
